A study of Danio rerio with 20 samples.

Results

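The 10 zebrafish (Danio rerio) liver tumors of this series were compared with one another, to find which genes separated them and which did not. They are 10 of the 20 arrays, and the other 10 carried normal livers. Every gene was described over the 10 tumors by its standard deviation (SD) and range. Of 15780 features measured, 5356 had a gene name, and the results below are about these named genes. The tumors are described in the labels as induced by carcinogens, with no agent, dose, age, sex, strain or genotype given in the sources used here. Every array of both groups carries the same source name and description, so only the titles separate the groups. An array was taken as a tumor where its title has a T and as a normal liver where it has a C. On every array of both groups the liver sample was labelled with Cy5 and normal liver RNA with Cy3 as a common reference. All fish, per the labels, were reared at 27 ± 2 °C, and 20 µg of total RNA was labelled per sample. Nothing in the labels says whether the arrays came from separate fish, how a tumor was dissected or how much surrounding liver it held, so the spread between tumors may be partly technical. Values are log2 ratios of the liver sample over the normal liver reference, less the median of the array, so that 0 is the typical gene and a difference of 1 is 2-fold. No label states which channel is on top; liver sample over reference was taken as the likely direction from the order of the channels, and every sign would turn if it were the other way. A ratio carries no level of its own, so genes can be compared between tumors but not with each other in abundance.

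The liver is built mainly of hepatocytes, which secrete most plasma proteins and lipid carriers and hold the enzymes of gluconeogenesis and of drug and alcohol metabolism. Around them lie bile duct cells, vessel cells, macrophages and stellate cells, the source of collagen in scarring liver. In teleost fish, pancreatic tissue can lie within or against the liver, and in females oestrogen drives hepatocytes to make the yolk precursor vitellogenin. A piece of tumor is thus a mixture, and in such bulk tissue fewer cells of a type and less RNA per cell cannot be told apart.

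Named genes varied between the tumors to very different degrees. The median SD was 0.385 in log2 ratio (quartiles 0.266 and 0.565), and the median distance between the lowest and the highest tumor was 1.24. At the wide end, 298 genes (5.56%) had an SD over 1, and the highest SD was 2.66. At the narrow end, 1745 genes (32.6%) had an SD under 0.3. The highest and lowest tumor differed more than 2-fold for 3471 genes (64.8%), more than 4-fold for 1122 genes (20.9%) and more than 16-fold for 136. A total of 183 genes were at least 2-fold above the reference in some tumors and at least 2-fold below it in others. Normal livers had a median SD of 0.407, with 284 genes over 1 and 1340 under 0.3. The 10424 unnamed features of the tumors had a median SD of 0.372.

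**Figure D1:**
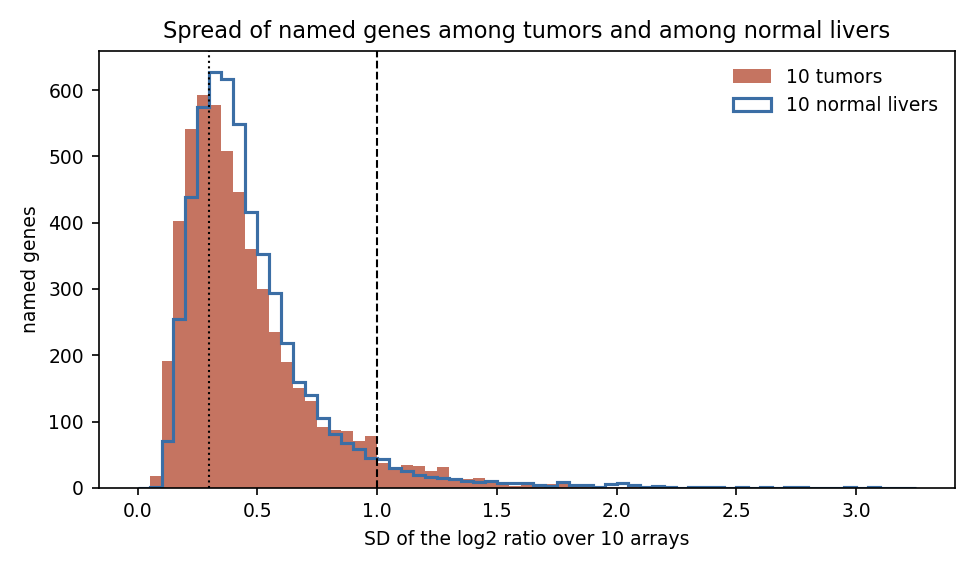
Number of named genes (vertical axis) by SD over arrays in log2 ratio (horizontal axis), for the 10 tumors and the 10 normal livers. Both distributions peak below an SD of 0.5 and have a long right tail, with 298 genes over 1 in tumors and 284 in normal livers.

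The tumors did not stand equally far from each other. Which one stood furthest depended on the measure: tumors 1 and 10 had the widest values and led the first principal component, while tumor 9 correlated least with the others. The median absolute deviation of all values of an array was 0.5385 in tumor 1 and 0.6098 in tumor 10, against 0.156 to 0.358 in the other tumors. The first principal component of the named genes held 46.7% of the variance, with scores of 42.5 for tumor 1, 58.4 for tumor 10 and -17.8 to -1.67 for the others. The second component held 15.3%, with tumor 9 at 41.5. Correlation between tumors over the named genes ran from 0.349 (tumors 4 and 9) to 0.802 (tumors 6 and 8), and tumors 1 and 10 had 0.751. The mean correlation of a tumor with the other 9 was 0.478 for tumor 9, 0.518 for tumor 10, 0.554 for tumor 1 and 0.565 to 0.683 for the rest. Those correlations are across genes, which are not independent replicates. Tumors 1 and 10 were the 2 highest for 1110 genes (20.7%) and the 2 lowest for 855 (16%), while the next pair, tumors 9 and 10, held those places for 343 and 382. Tumor 9 also had the largest share of values that look like ratios of small whole numbers, a sign of dim spots, at 7.16%, against 3.38% in tumor 10, 1.478% in tumor 1 and 0.654% to 1.67% over all the others. In normal livers the share ran from 2.55% to 7.87%, mostly above that of the tumors other than 9. The part of this share in the values of tumor 9, and in the ranges set beside normal livers, was not tested.

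**Figure D2:**
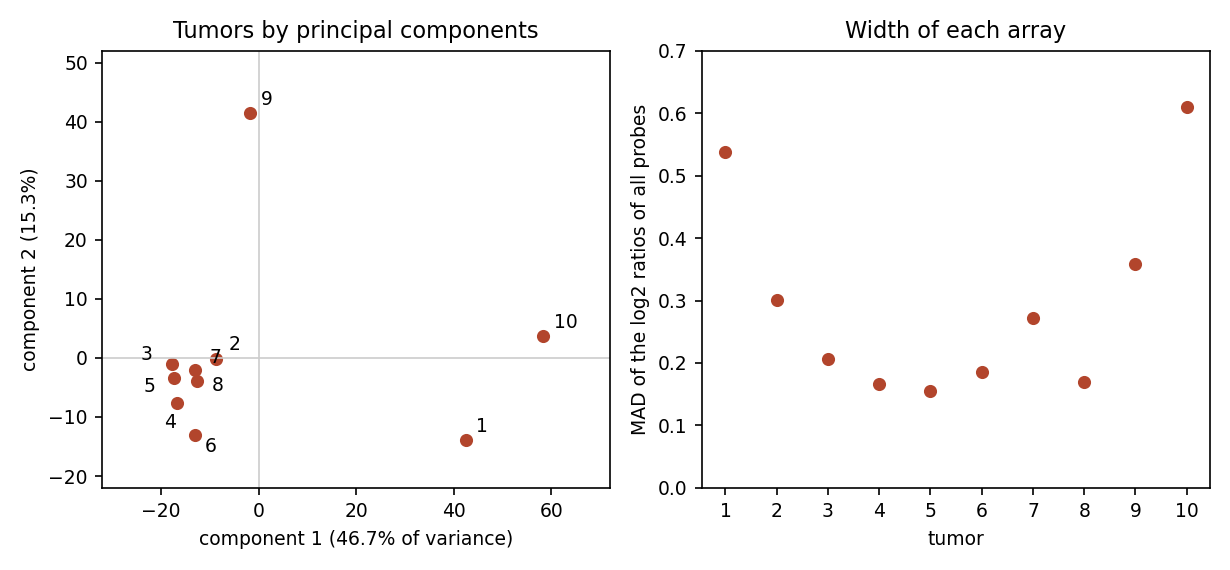
Left, the 10 tumors by their scores on the 2 leading principal components of the named genes. Tumors 1 and 10 lie at the right (42.5 and 58.4), tumor 9 lies at the top (41.5), and the other 7 tumors lie close together at the left. Right, the median absolute deviation (MAD) of the log2 ratios of all probes on each tumor array, highest in tumors 10 (0.6098) and 1 (0.5385).

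The 15 genes with the highest SD included genes high in tumors 1 and 10, liver products low in part of the tumors, pancreatic enzymes, genes displaced in a single tumor, and the class I gene mhc1uba. Of the 298 genes with an SD over 1, 91 (30.5%) had tumors 1 and 10 as their 2 highest, 62 (20.8%) had them as their 2 lowest, and 145 had neither. Over all named genes the first 2 shares were 20.7% and 16%. Without those 2 tumors 112 genes had an SD over 1, of which 102 were among the 298. The lists of the 15 most variable genes with and without tumors 1 and 10 shared 8 genes.

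Matrix and growth genes were the most variable of those high in tumors 1 and 10. Midkine a (mdka, a secreted heparin-binding growth factor) had 5.15, 1.1, 0.26, -0.12, -0.05, 0.72, 0.00, 0.06, 0.39 and 5.83 in tumors 1 to 10, an SD of 2.23 (95% interval 1.53 to 4.07). The intervals given for SDs assume normally distributed values, so they are only a rough guide where single tumors stand far apart. They also do not allow for the choice of genes by their high SD. Decorin (dcn, a collagen-binding proteoglycan) had 4.99, 0.29, -0.40, -0.12, -0.20, 0.05, 0.47, 0.07, 1.23 and 5.11, an SD of 2.1. In both, tumors 1 and 10 stood far above the other tumors. Most of those lay near the reference, but mdka was 1.1 in tumor 2 and dcn 1.23 in tumor 9. The type I collagen chains col1a1a (0.64 to 5.75, median 1.63), col1a1b (0.20 to 5.01, median 0.87) and col1a2 (0.25 to 5.38, median 1.04) were above the reference in every tumor. Their highest values were in tumors 1 and 10, followed by tumor 2 or 9: col1a1a was 3.99 in tumor 2 and 3.53 in tumor 9. The transcription factor gene sox4a ran from -0.31 to 6.07, with a median of 1.3. Normal livers had narrower ranges for mdka, from -0.62 to 0.79, and for dcn, from -0.30 to 1.53. The retinaldehyde dehydrogenase gene aldh1a2, which makes retinoic acid, followed the same tumors, with 3.03 in tumor 1, 3.3 in tumor 10 and at most 1.44 in the others.

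Of 27 measured genes of the extracellular matrix and stellate cell list, tumors 1 and 10 were the 2 highest for 12 and tumor 10 the highest for 16. Over all named genes these shares were 20.7% and 25.6%. The SDs of the list ran from 0.142 (twist1a, a transcription factor of mesenchyme) to 2.1 (dcn), and 10 members were over 1. The mean correlation between its members was 0.318 over the 10 tumors and 0.212 without tumors 1 and 10, beside 0.00743 between all named genes. The list therefore did not move as 1 block: twist1a stayed between -0.32 and 0.11 in every tumor.

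Several hepatocyte products were lowest in tumors 4 and 6, while others were lowest in tumors 1 and 10. Liver fatty acid binding protein (fabp10a, a marker of fish hepatocytes) had -3.16, -2.23, 0.01, -5.78, 0.36, -4.31, -3.36, -0.28, -0.03 and -2.97 in tumors 1 to 10, an SD of 2.11 (95% interval 1.45 to 3.84). Tumors 3, 5, 8 and 9 were close to the reference and the other 6 were more than 4-fold below it, lowest in tumors 4 and 6. Normal livers ran from 0.07 to 2.35. Fetuin A (ahsg1, a plasma carrier of calcium phosphate) had -2.32, 0.13, 1.82, -4.13, 1.69, -2.56, 0.11, -0.38, 0.32 and -2.44, so that tumors 4, 6, 10 and 1 were low and tumors 3 and 5 were high. Transferrin (tfa, the iron carrier of plasma) had the same lowest and highest tumor over a smaller range, with -2.45 in tumor 4 and 1.2 in tumor 3. The genes most like fabp10a among the 1719 named genes with an SD of at least 0.5 were tfa (r = 0.902), ahsg1 (r = 0.869) and the apolipoprotein gene apoa1b (r = 0.825), and without tumors 1 and 10 the values were 0.901, 0.878 and 0.859. These 3 were selected as the highest of all, over the same 10 arrays, so the values are a description. In apoa1b, tumors 4 and 6 had -3.69 and -3.34 and the other tumors -1.26 to 0.43.

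The 10 measured plasma protein genes had a mean correlation of 0.424 with all tumors and 0.428 without tumors 1 and 10. Their median level per tumor was -2.71 in tumor 10, -2.39 in tumor 1, -2.26 in tumor 4 and -2.0 in tumor 6, from -0.880 to -0.188 in tumors 2, 3, 5, 7 and 8, and 0.291 in tumor 9. Antithrombin (serpinc1, an inhibitor of clotting) ran from -3.84 to -0.21, with a median of -2.46, and kininogen (kng1, the precursor of kinins) from -2.42 to 0.76, with a median of -0.34. Within the list proza (a vitamin K dependent plasma protein) varied least, from -0.26 to 0.90 with an SD of 0.42. The defining liver markers did not all behave alike. Retinol binding protein (rbp4) ran from -6.17 to -3.15 and apolipoprotein A-I (apoa1a) from -4.99 to -2.0, low in all 10 tumors, whereas fabp10a and tfa ranged from near or above the reference to far below it. In apoa1a the 3 highest tumors were 10 (-2.0), 2 (-2.19) and 1 (-2.36), not those with high fabp10a.

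Alcohol dehydrogenase adh8a had -4.38, -1.53, -1.54, -4.03, -1.39, -2.45, -2.53, -0.50, 1.14 and -4.99 in tumors 1 to 10, an SD of 1.87. Only tumor 9 was above the reference, and tumors 10, 1 and 4 were lowest. Normal livers ran from 1.21 to 2.99 for adh8a, so the 1.14 of tumor 9 lay just below their lowest value. For xenobiotic metabolism, tumors 1 and 10 were the 2 lowest for 10 of 16 measured genes (62.5%, against 16% of all named genes), and the median level was -2.42 in tumor 1, -1.19 in tumor 10 and -1.1 to -0.181 in the others. The cytochrome P450 gene cyp2k6 ran from -5.06 to -0.38 and cyp1a, which responds to aromatic hydrocarbons through the aryl hydrocarbon receptor, from -3.50 to -0.64. Of 18 genes of fatty acid synthesis and oxidation, tumors 1 and 10 were the 2 lowest for 10, and the desaturase gene fads2 ran from -6.44 to -1.80. Both lists had median levels below the reference in every tumor, and the arrays of tumors 1 and 10 were the widest. The mean correlation between members was 0.287 and 0.248. With each array divided by its median absolute deviation it was 0.0313 and -0.0291. The part of array width in these counts was not tested.

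Of the 5 measured genes listed under gluconeogenesis and glycogen, igfbp1a among them, tumors 1 and 10 were the 2 lowest for 4 (80%, against 16% of all named genes). Fructose bisphosphatase (fbp1b) ran from -3.94 to 0.05, with a median of -2.23, and phosphoenolpyruvate carboxykinase (pck1) from -4.41 to -1.34, with a median of -3.92. The glucose 6-phosphate transporter slc37a4a was low in all tumors, from -3.3 to -0.98. The mean correlation of this list was 0.501, but 0.113 without tumors 1 and 10. With each array divided by its median absolute deviation it was 0.123. Median levels of the list were below the reference in every tumor, from -3.65 in tumor 10 to -0.888 in tumor 2. The arrays of tumors 1 and 10 were the widest, and the part of this width in the count was not tested. The growth hormone receptor gene ghrb ran from -3.29 in tumor 1 to 1.13 in tumor 9, and insulin-like growth factor igf1 from -3.18 in tumor 1 to 0.00 in tumor 9. The insulin-like growth factor binding protein gene igfbp1a, already counted in the gluconeogenesis and glycogen list, ran from -3.65 in tumor 10 to 0.81 in tumor 3. The receptor gene fgfr4, through which fibroblast growth factor signals limit bile acid synthesis in mammals, had -2.06, 2.51, 1.89, -0.07, 1.80, 2.45, 2.73, 1.74, 3.08 and -1.19 in tumors 1 to 10. It was thus at least 3-fold above the reference in 7 tumors, and below it in tumors 1, 4 and 10. Normal livers ran from -0.52 to 0.74 for fgfr4.

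**Figure D3:**
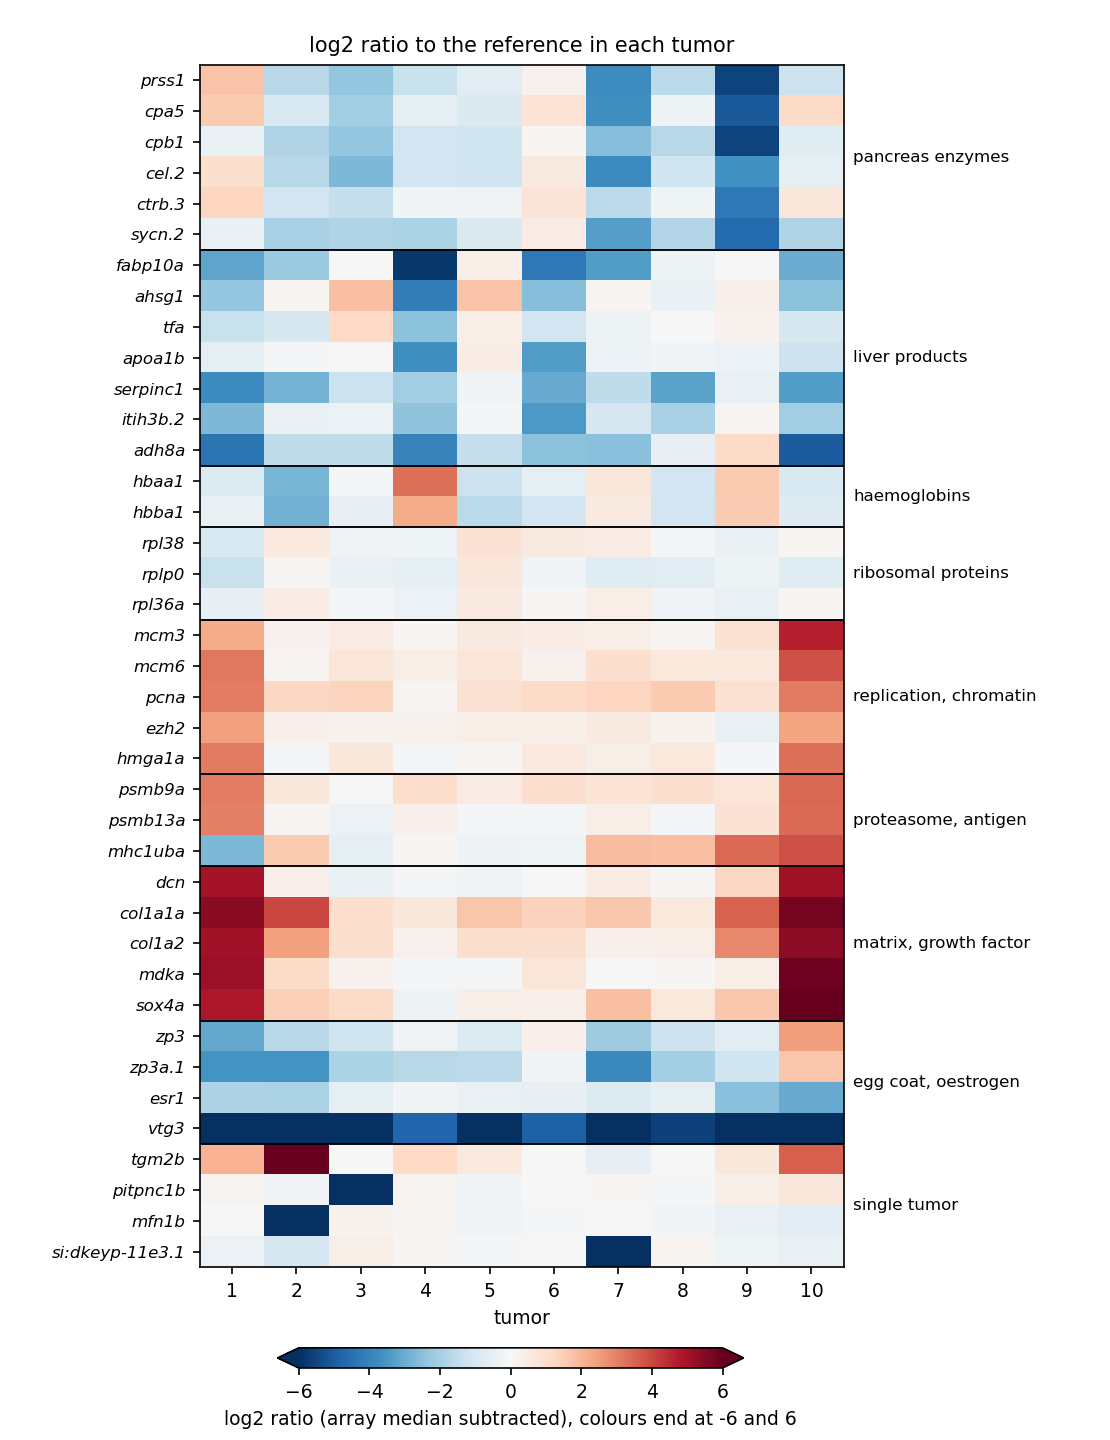
Log2 ratio of selected variable genes in each of the 10 tumors, with the genes grouped by role and the colours (blue below the reference, red above) ending at -6 and 6. Tumors 1 and 10 are highest for the collagen and replication genes, tumors 4 and 6 are lowest for fabp10a and apoa1b, and tumors 7 and 9 are lowest for the pancreatic enzymes.

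Groups of genes that varied together were sought with 44 lists, covering 738 measured genes, and 43 had at least 5 measured members. The mean correlation between members ran from -0.00957 to 0.915 over these lists, with a median of 0.193. For 14 lists it was at least 0.3, and for 3 of them it was still at least 0.3 without tumors 1 and 10: exocrine pancreas, ribosomal proteins and plasma proteins. Members share arrays, so these values are a description with no test.

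**Figure D4:**
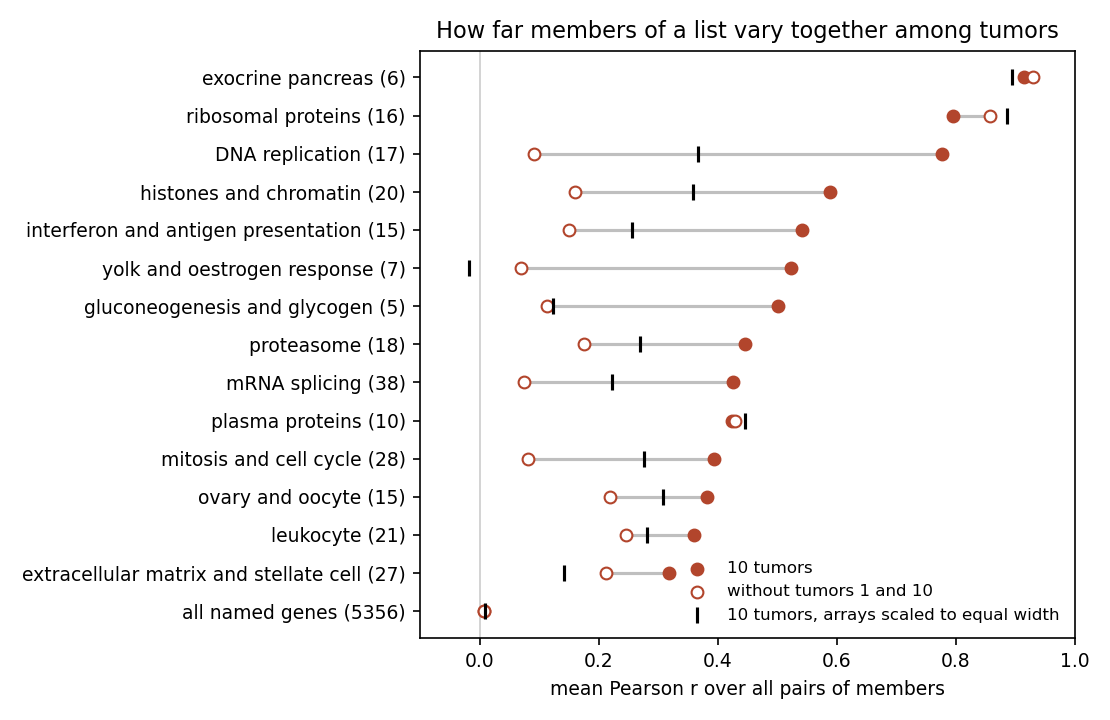
Mean Pearson correlation between the measured members of a list over the 10 tumors, and over the 8 tumors without 1 and 10. Ticks give the 10 tumors with each array scaled to equal width. Only the 14 lists with a mean of at least 0.3 over the 10 tumors are drawn, beside all named genes. Exocrine pancreas (0.915 and 0.930) and ribosomal proteins (0.795 and 0.857) stay high in both, while DNA replication (0.777 and 0.0917) is high only with tumors 1 and 10.

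Digestive enzymes of the exocrine pancreas formed the tightest group. The mean correlation of the 6 measured genes was 0.915, and 0.930 without tumors 1 and 10, and all 6 had an SD over 1. Trypsinogen (prss1) had 1.69, -1.65, -2.31, -1.32, -0.70, 0.24, -3.78, -1.61, -5.55 and -1.23 in tumors 1 to 10, an SD of 2.0. Carboxypeptidase A5 (cpa5) had 1.57, -0.92, -2.05, -0.60, -0.87, 0.82, -3.67, -0.33, -5.04 and 1.15. Tumors 7 and 9 were the 2 lowest for 6 of 6 genes, and tumors 1 and 6 were the 2 highest for 5 of 6. Over all named genes these shares were 3.70% and 1.59%. Carboxypeptidase B (cpb1), bile salt activated lipase (cel.2), chymotrypsinogen (ctrb.3) and syncollin (sycn.2, a zymogen granule protein) had ranges of -5.56 to 0.13, -3.84 to 0.97, -4.31 to 1.3 and -4.63 to 0.49. Median levels of the list ran from -4.84 in tumor 9 to 1.13 in tumor 1. In normal livers prss1 ran from -3.45 to 3.44 with an SD of 2.32, and the mean correlation of the list was 0.969. These enzymes thus varied together in both groups. How much pancreatic tissue each sample held is not given in the sources used here, and its part in these values was not tested. The other genes closest to prss1 included ankha (r = 0.941), a homolog of the mammalian pyrophosphate transporter ANKH. The correlation between prss1 and fabp10a was -0.359 (adjusted permutation p = 0.387), so the order of tumors by pancreatic enzymes was not detectably that of the hepatocyte marker.

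The 16 ribosomal protein genes varied together over a narrow range. Their mean correlation was 0.795, and 0.857 without tumors 1 and 10, and no member had an SD over 1. The acidic stalk protein gene rplp0 ran from -1.36 to 0.69 (median -0.48) and rpl38 from -0.91 to 0.87 (median 0.02). Tumor 5 was highest for 10 members and tumor 2 for 6, while tumor 4 was lowest for 9 and tumor 1 for 6. Of all 5356 named genes, tumor 5 was highest for 404 and tumor 2 for 409, while tumor 4 was lowest for 438 and tumor 1 for 936. Median levels per tumor ran from -0.503 in tumor 4 to 0.709 in tumor 5. This order differs from those of the plasma proteins and of the pancreatic enzymes. Normal livers had a mean correlation of 0.870 for the same list, so coordinated variation of these genes was present in both groups.

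The haemoglobin genes hbaa1 and hbba1 were the 2 most variable of 14 erythrocyte genes and varied together, unlike the list as a whole. The alpha chain gene hbaa1 had -0.83, -2.72, -0.12, 3.3, -1.3, -0.53, 0.68, -1.15, 1.57 and -0.92 in tumors 1 to 10, and the beta chain gene hbba1 had -0.43, -2.87, -0.51, 2.21, -1.61, -1.15, 0.53, -1.15, 1.5 and -0.78. Tumors 4, 9 and 7 were high and tumor 2 was lowest. The correlation of hbba1 with hbaa1 was 0.973, the highest of the 1719 genes searched, followed by atp1b1b, a beta subunit of the sodium pump, at 0.892. The 2 adult chain genes are near-identical to other copies in the genome, and the probes may not separate the copies. The embryonic chain gene hbae3 varied less, from -1.0 to -0.03. In normal livers hbaa1 ran from 0.05 to 1.85. The mean correlation of the erythrocyte list was 0.0826, and its median level ran from -0.770 in tumor 10 to 0.0381 in tumor 9, with -0.165 in tumor 2. The part of blood left in the tissue was not tested.

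Genes of DNA replication separated tumors 1 and 10 from the rest. The helicase subunit gene mcm3 had 2.22, 0.27, 0.51, 0.12, 0.52, 0.44, 0.34, 0.14, 0.91 and 4.68 in tumors 1 to 10, and mcm6 had 3.17 in tumor 1, 3.87 in tumor 10 and 0.18 to 0.99 in the others. The polymerase clamp gene pcna had 3.05, 1.23, 1.34, 0.17, 0.92, 1.15, 1.31, 1.58, 0.92 and 3.11, above the reference in all 10 tumors. Of the 17 measured genes, tumors 1 and 10 were the 2 highest for 14 and tumor 10 the highest for 14, against 20.7% and 25.6% of all named genes. Median levels were 2.13 in tumor 10, 1.25 in tumor 1 and 0.0528 to 0.251 in the others. The mean correlation was 0.777 over all tumors and 0.0917 without tumors 1 and 10, so among the other 8 tumors these genes showed little common variation. When every array was divided by its own median absolute deviation, which is largest in tumors 1 and 10, the mean correlation over all tumors was 0.367. The clamp loader gene rfc3 stayed between -0.33 and 0.30.

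Chromatin, splicing and proteasome genes showed the same division. Tumors 1 and 10 were the 2 highest for 16 of 20 histone and chromatin genes, 22 of 38 splicing genes, 17 of 28 genes of mitosis and 10 of 18 proteasome genes, against 20.7% of all named genes. The chromatin protein gene hmga1a had 3.09 in tumor 1, 3.3 in tumor 10 and at most 0.69 in the others, and ezh2, the methyltransferase of the Polycomb complex, had 2.46 in tumor 1, 2.35 in tumor 10 and at most 0.56 in the others. The spliceosome core gene snrpb ran from -0.20 to 3.32, with a median of 0.23. The mean correlation between members was 0.589 for histones and chromatin, 0.426 for splicing, 0.445 for the proteasome and 0.394 for mitosis. Without tumors 1 and 10 it was 0.160, 0.0736, 0.174 and 0.0809. The genes most like pcna were anp32b, a histone chaperone (r = 0.968), and hmga1a (r = 0.951), and without tumors 1 and 10 these were 0.847 and 0.657.

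Antigen presentation and leukocyte genes were high in tumor 10, and their order in the other tumors varied by gene. The immunoproteasome subunit gene psmb9a ran from -0.03 to 3.44, with 3.07 in tumor 1 and 3.44 in tumor 10, and psmb13a from -0.34 to 3.40. The invariant chain gene cd74a, which guides class II molecules, had 4.2, 2.92, 1.35, 1.82, 1.68, 3.35, 2.64, 2.25, 2.69 and 4.70, above the reference in all 10 tumors, and ran from 0.40 to 3.19 in normal livers, also all above it. The macrophage perforin gene mpeg1.1 had 3.96 in tumor 10, 3.01 in tumor 4 and -0.17 in tumor 3, and lysozyme (lyz) had 1.98 in tumor 4, 1.87 in tumor 10 and at most 0.10 elsewhere. Tumor 4 was thus high for both, though it was among the lower tumors for cd74a. Myeloperoxidase (mpx, of neutrophils) was 4.02 in tumor 10 and at most 0.68 in the other tumors. Of 15 genes of interferon and antigen presentation, tumors 1 and 10 were the 2 highest for 10 and tumor 10 the highest for 12, against the same 20.7% and 25.6%. Of 21 leukocyte genes they were the 2 highest for 7. Lists share members, so their counts are not separate: psmb13a is also in the proteasome list, and mhc1uba is in both lists given here. Median SDs of the 2 lists were 1.09 and 0.880, against 0.689 and 0.781 in normal livers. The class I gene mhc1uba went its own way, with -2.68 in tumor 1, 3.41 in tumor 9 and 3.86 in tumor 10. It ran from -3.18 to 4.02 in normal livers. Class I genes of fish can differ between individuals in sequence, and the part of this in the probe's signal was not tested.

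Egg genes and oestrogen responses were a further source of differences. The egg coat gene zp3 had -3.09, -1.65, -1.22, -0.21, -0.84, 0.32, -2.13, -1.22, -0.64 and 2.53 in tumors 1 to 10, and zp3a.1 and zp3b had 1.68 and 1.96 in tumor 10 and at most -0.05 in the others. The germ cell gene dazl was 1.66 in tumor 10 and at most -0.10 in the others. Tumor 10 was the highest for 11 of 15 ovary and oocyte genes, against 25.6% of all named genes. The mean correlation of the list was 0.382 in tumors, 0.219 without tumors 1 and 10, and 0.659 in normal livers, where zp3 spanned -4.45 to 2.6. Not all members followed zp3 detectably: for zpcx r was 0.604 (adjusted permutation p = 0.115), and -0.0883 without tumors 1 and 10. The part of any ovary tissue in these values was not tested. The RNA-binding gene rbm8a (r = 0.982) and chrne (r = 0.970), a subunit gene of the muscle acetylcholine receptor, were the closest to zp3. Vitellogenin 3 (vtg3) had -7.71, -6.81, -5.92, -4.76, -5.96, -4.91, -7.05, -5.62, -7.64 and -8.01. Normal livers ran from -8.17 to -0.21 for vtg3, with a median of -7.35, so most of them were as far below the reference as the tumors. The oestrogen receptor gene esr1 ran from -3.04 to -0.15 in tumors and from -3.18 to 0.77 in normal livers. Tumor 10 was lowest for vtg3 and for esr1, although highest for zp3. No sex is given for these fish, and the part of sex in these genes was not tested.

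Other genes with a high SD owed it to a single tumor. Transglutaminase 2b (tgm2b, an enzyme that crosslinks proteins) had the highest SD of all at 2.66 (95% interval 1.83 to 4.86), with 8.34 in tumor 2, 3.60 in tumor 10 and -0.47 to 2.09 in the other tumors. The lipid transfer protein gene pitpnc1b was -6.39 in tumor 3, and si:dkeyp-11e3.1, of no role given here, was -6.12 in tumor 7. The mitochondrial fusion gene mfn1b was -5.99 in tumor 2. In these 3 genes the other 9 tumors lay within a narrow band, from a lowest of -0.99 to a highest of 0.69. The mitochondrial protease gene afg3l2 was 5.46 in tumor 3 and the homeobox gene gbx1 was -5.20 in tumor 7, with medians of 0.00 and 0.13. Each of these 6 genes was measured with 1 probe, so a fault of the spot and a change in the tumor cannot be told apart. Dixon's criterion is met by chance alone in about 5% of genes if values are normally distributed with equal spread. The arrays of tumors 1 and 10 were wider, so that rate is only a rough guide here. By this criterion 1 tumor stood apart for 989 named genes (18.5%). Tumor 10 was that tumor for 463 genes, tumor 1 for 254 and tumor 9 for 154. Among the 298 genes with an SD over 1 the count was 65, of which tumor 10 held 38.

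Stress genes gave another pair that moved together outside tumors 1 and 10, though not as a group. The 29 measured heat shock and cytosol chaperone genes had a mean correlation of 0.0221, and 0.0686 without those tumors. The heat shock gene hsp70l ran from -2.63 to 1.90, with a median of -0.34, and the gene most like it was its relative hsp70.3 (r = 0.950, and 0.948 without tumors 1 and 10), which ran from -1.88 to 1.05. The 2 are closely related copies, so their probes may share signal. For cyp1a the nearest genes were nog1 (r = 0.927), fabp3 (r = 0.918) and qsox1 (r = 0.913).

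A total of 16 gene pairs were tested over the 10 tumors, with p-values from 100000 permutations adjusted by Benjamini-Hochberg over the pairs. Of these, 5 had an adjusted p under 0.05, and 8 had an unadjusted p under 0.05. The pairs were chosen with earlier results of these data known, so the p-values are not an independent test of them. The trypsinogen gene prss1 correlated with cpb1 (r = 0.917, rho = 0.952, adjusted permutation p = 0.00096) and with cel.2 (r = 0.938, rho = 0.915, adjusted permutation p = 0.00064). Without the 2 tumors farthest from the median of prss1, 1 and 9, r was 0.911 and 0.955. The yolk gene vtg3 correlated with esr1 (r = 0.885, rho = 0.855, adjusted permutation p = 0.00261), and r was 0.830 without tumors 4 and 10. For pcna with ezh2, r was 0.903 (rho = 0.624, adjusted permutation p = 0.0178) but 0.226 without tumors 1 and 10, so that relation rests on those 2 tumors. For hbaa1 with hbae3, r was 0.754 (rho = 0.648, adjusted permutation p = 0.0361) and 0.617 without tumors 4 and 9, where the permutation p was 0.102. The pair adh8a and fabp10a had r = 0.723 (rho = 0.661, adjusted permutation p = 0.0506), which missed the threshold, and the correlation of pcna with zp3 was 0.0851 (adjusted permutation p = 0.811). Because tumors 1 and 10 lie apart, r was also taken over the other 8 tumors. Of the 5 pairs, 3 still passed: prss1 with cpb1 (0.963), prss1 with cel.2 (0.919) and vtg3 with esr1 (0.837). Among the pairs that had not passed with all 10 tumors, adh8a with fabp10a (r = 0.817, exact permutation, adjusted p = 0.0279) and the actin genes actb1 with actb2 (r = 0.918, exact permutation, adjusted p = 0.00741) passed over the 8.

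Genes that were alike in all tumors, either in level or only in their side of the reference, came in 2 kinds. The first had little spread and lay near the reference: of the 1745 genes with an SD under 0.3, 1509 had a mean within 0.3 of the reference, and for 0 of them were all 10 tumors at least 0.5 away on the same side. The lowest SD was that of fbxo11a (a subunit of a ubiquitin ligase) at 0.0629, between -0.22 and -0.02. The RNA helicase gene ddx6, which acts in mRNA decay, ran from -0.36 to -0.09, the phosphatase gene ptpn2a from -0.26 to 0.04 and the co-chaperone gene fkbp4 from 0.10 to 0.36. The agreement between probes of 1 gene was also described. Among genes with several probes the median correlation between probes of a gene over the tumors was 0.0675 for the 218 genes with an SD under 0.3, against 0.610 for SDs of 0.3 to 0.5 (168 genes), 0.781 for 0.5 to 1 (103 genes) and 0.708 over 1 (14 genes). At the low end, probes of the same gene thus mostly did not follow each other from tumor to tumor. The SD is that of the average of the probes, and averaging probes that disagree lowers it. These values therefore cannot tell whether a low SD goes with probes that respond little.

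The second kind was displaced to the same side of the reference in every tumor, but its level was not uniform. The smallest SD was 0.410 (klf7b) among those above and 0.512 (si:ch73-106k19.5) among those below. The median SD of all named genes was 0.385. All 10 tumors were at least 2-fold off the same way for 51 genes, 18 above and 33 below. Among the normal livers 1 gene was above and 4 were below in all 10, and 0 of the 51 were off in all normal livers as well. For part of the 51 this rested on 1 array. For example, npc2.1, pax9 and vtg3 were more than 2-fold below the reference in every normal liver except normal liver 5. Those above with the smallest SDs included clic1 (chloride intracellular channel 1), with a lowest of 1.26, a median of 1.94 and a highest of 2.89, against -0.66, 0.09 and 1.36 in normal livers. The transcription factor gene klf7b ran from 1.44 to 2.59 in tumors and from 0.12 to 2.02 in normal livers. The cardiac muscle actin gene actc1b ran from 1.77 to 3.48, and its relative actc1a from 1.29 to 2.57. Normal livers ran from 0.62 to 2.07 for actc1b and from 0.67 to 1.75 for actc1a, so for all 4 genes the ranges of the groups overlapped. The mean over normal livers was itself at least 2-fold above the reference for 13 of the 18 genes. The gene si:dkey-7i4.24, of no role given here, was furthest above the reference on average among the 18 and the most variable of them, with 8.27 in tumor 3, 2.88 in tumor 4 and an SD of 1.74. The cytoplasmic actin gene actb2, averaged over 172 spots, ran from 1.41 to 3.58, and 9 of the other 17 genes correlated with it at 0.7 or more over the tumors, among them has2 (0.953), relt (0.931), clic1 (0.831), actc1b (0.810) and klf7b (0.705). These 9 genes varied with actb2 and may thus not be separate observations. The share of all named genes that correlated with actb2 at 0.7 or more was not computed.

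Below the reference in every tumor, tcn2 (transcobalamin 2, a carrier of vitamin B12) had a lowest of -2.95, a median of -1.85 and a highest of -1.24 in tumors, against -0.85, -0.21 and 0.52 in normal livers. The groups did not overlap. For ppp1r3ca (a glycogen-targeting subunit of protein phosphatase 1) the averaged values ran from -2.83 to -1.02 in tumors and from -0.87 to 0.21 in normal livers, but its 2 probes did not follow each other (r = 0.0289). The first lay between -0.48 and 0.18 in all tumors, near the reference, and the second between -5.85 and -1.85, so the low average rests on 1 probe. The same holds for si:ch73-106k19.5, whose probes ran from -0.66 to 1.0 and from -7.96 to -4.38. The mitochondrial pyruvate carrier gene mpc2b ran from -3.73 to -1.68 in tumors and from -2.24 to 0.51 in normal livers, which overlapped. The mean of the normal livers was at least 2-fold below the reference for 18 of the 33 genes, among them npc2.1, a cholesterol transfer protein, and pax9, which had a median of -6.33 in tumors and -6.38 in normal livers. In these a value below the reference in all tumors was shared by most normal livers. Normal liver 5 was the highest for npc2.1 (0.39) and pax9 (0.22), as it was for vtg3 (-0.21). These genes may thus not be separate observations, and their relation was not tested.

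**Figure D5:**
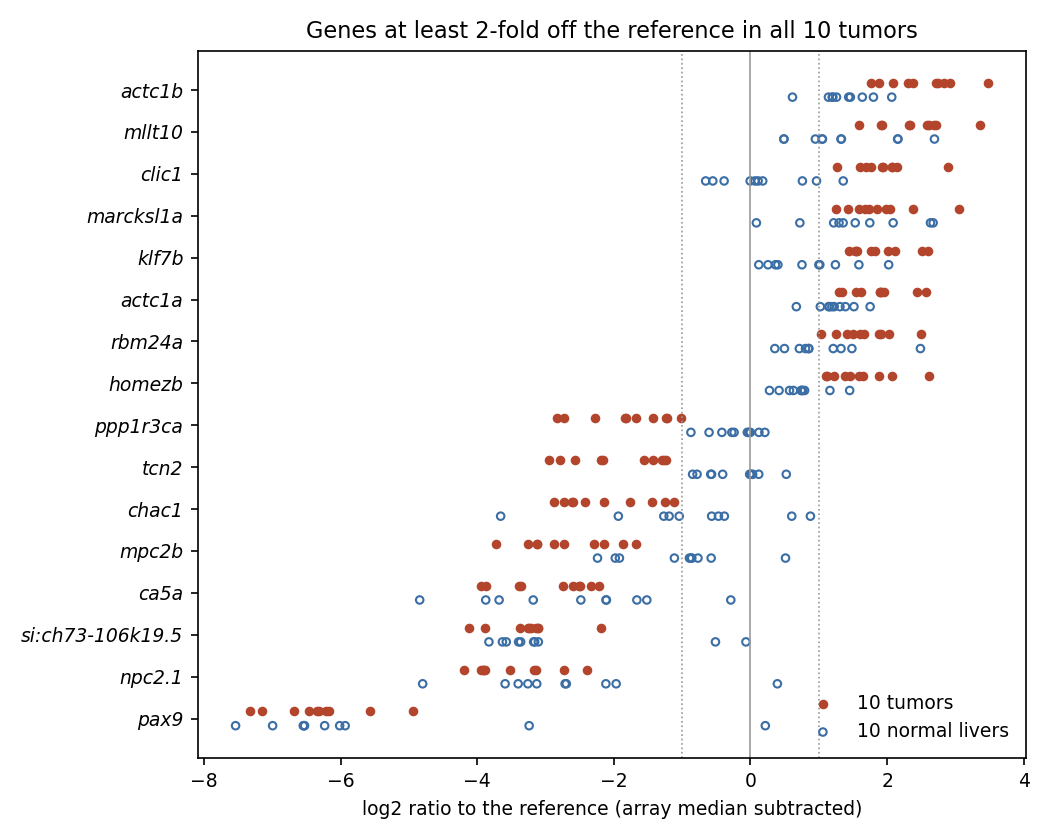
Log2 ratio in each array (points) of genes at least 2-fold off the reference the same way in all 10 tumors, with tumors above normal livers for each gene. For tcn2 and for the average of ppp1r3ca, whose 2 probes disagreed, the tumors lie below all normal livers, whereas for pax9 the medians of both groups are close (-6.33 in tumors and -6.38 in normal livers), with single normal livers far above.

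Whether single genes spread more or less among tumors than among normal livers was tested with limma on absolute deviations from the group mean, over all 15780 features. Of these, 7 had an adjusted p under 0.05 (0.0444%): 4 spread more in tumors (0.0253%) and 3 less (0.019%), and 2064 had an unadjusted p under 0.05. The only named gene was itih3b.2 (an inter-alpha-trypsin inhibitor heavy chain, which binds hyaluronan), with -2.69, -0.43, -0.37, -2.40, -0.13, -3.46, -0.99, -1.93, 0.14 and -2.08 in tumors 1 to 10, against -0.23 to 0.72 in normal livers. Its mean absolute deviation was 1.08 in tumors and 0.158 in normal livers, a difference of 0.921 ± 0.157 (SE; limma, adjusted p = 0.0304). Without tumors 1 and 10 the difference was 0.894 and the adjusted p 0.0867. Over all features 8 then passed, 0 spreading more in tumors and 8 less, and 2 of them were among the 7. With limma, itih3b.2 did not pass with deviations from the group median, with a replicate block, with the dim share as covariate, or when tumor 1, 2, 3 or 5 was left out. The most variable genes of the tumors, such as mdka with an SD of 2.23 in tumors and 0.45 in normal livers, did not pass it.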

How the data were processed

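RNA of 10 tumors and 10 normal livers was measured on 2-colour arrays. The authors deposited 1 table of log2 ratios. The base of the log2 values was read from the values themselves. The sources used here do not state the direction, the background correction or the normalization. The platform annotation gave 1 symbol for 6088 of the 16512 probes (36.9%), several for 75 and none for 10349. Names were updated through a RefSeq gene table (assembly GRCz12tu), which changed 1 symbol. Probes with the same symbol were averaged, which gave 15780 features, 504 named ones resting on several probes, and the median of each array was subtracted. SD, range, principal components and correlations were computed in Python 3.11.15 with numpy 2.4.6, pandas 2.3.3 and scipy 1.17.1, and the spread test with limma 3.58.1 in R 4.3.3, checked on simulated data, where it found few of the simulated differences, so a gene that missed the threshold is not shown to spread alike in both groups. The number of arrays limits the precision. The alternatives were other scalings, leaving out tumors, rank correlation, the dim share as a covariate, deviations from the median and a rank-sum test. The analysis of the tumors, the gene lists and the tests were chosen with earlier results of these data known. Genes were named by rule: the 15 highest and 10 lowest SDs, the 8 above and 8 below the reference in all tumors with the smallest SDs, the 2 most and 1 least variable of each list, the tested pairs, the 3 genes most like each of 9 chosen genes, and those called in the spread test. The genes afg3l2, gbx1, si:dkey-7i4.24, mpeg1.1, cd74a, igf1, ghrb, pck1, zp3b, dazl, col1a1b, lyz, aldh1a2, kng1, has2 and relt were named after their values were seen.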

Additional observations from a re-analysis of the deposited data

Results flagged for a closer look

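For 17 of the 102 genes named in the text (16.7%), 1 tumor stood apart from the other 9 by Dixon's criterion. Chance meets it in about 1 of 20 groups of normally distributed values with equal spread. The share was not higher than the 18.5% over all named genes (989). In tumor 2, tgm2b was 8.34 and mfn1b was -5.99. In tumor 3, pitpnc1b was -6.39 and afg3l2 was 5.46. In tumor 7, si:dkeyp-11e3.1 was -6.12 and gbx1 was -5.20. In tumor 5, si:ch73-106k19.5 was -2.18, above the other tumors, but its 2 probes did not follow each other (r = -0.129). Tumor 9 had the lowest values of the pancreatic enzymes cpb1 (-5.56) and ctrb.3 (-4.31), and of the chaperone gene dnajb11 (-1.35). In tumor 6, relt was 3.74. Tumor 10 had the highest values of mcm3 (4.68), mpx (4.02), rbm8a (2.6), dazl (1.66), ccnb1 (3.06) and fbxo5 (1.33). All of these except si:ch73-106k19.5 rest on 1 probe.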

How the results depend on the processing

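Values are given as r for pairs and as mean r for lists. Without tumors 1 and 10, 112 genes had an SD over 1 and 3228 had one under 0.3. With SDs replaced by the scaled median absolute deviation these counts were 128 and 3367. Leaving out 1 tumor at a time gave 183 to 366 genes over 1. Scaling each array by its median absolute deviation put 30.5% of the variance on the first component.

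The count of features that differ in spread from normal livers was 0 with deviations from the group median (951 at an unadjusted p under 0.05), 47 with scaled arrays, 1 with the dim share as covariate, 65 by an exact rank-sum test and 3 to 11 when 1 tumor was left out. With a replicate block it was 0 by limma (2055 at an unadjusted p under 0.05). Without tumors 1 and 10 it was 8, of which 0 spread more in tumors and 8 less. The labels state no pairing of the samples. Same-numbered arrays correlated at -0.152 to 0.122 in their deviations, with 2 of 10 over 0.1, which cannot show whether they were paired.

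Among pairs, pcna with ezh2 had a rho of 0.624, an r of 0.226 without tumors 1 and 10, and 0.842 to 0.958 when 1 tumor was left out. For hbaa1 with hbae3 these were 0.648, 0.780 and 0.641 to 0.849. The pair adh8a and fabp10a had 0.729 as deposited, 0.817 without tumors 1 and 10, 0.688 given the dim share and 0.686 to 0.773 when 1 tumor was left out, and actb1 with actb2 had 0.918 without tumors 1 and 10 and 0.353 to 0.886. Pairs that passed only given the dim share were zp3 with zpcx (0.826) and ccnb1 with fbxo5 (0.893). Without tumors 1 and 10 these had -0.0883 and -0.328, and ccnb1 with fbxo5 had a rho of 0.0424 and an r of -0.315 without tumor 10 alone. For hmgcs1 with fdft1 the values were 0.708 as deposited, 0.875 given the dim share and 0.499 to 0.846 with 1 tumor left out, and for canx with dnajb11 0.703 as deposited and 0.374 to 0.814. The r of pcna with zp3 ran from -0.792 to 0.586 when 1 tumor was left out, so its sign was not settled.

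List means without tumors 1 and 10 and with scaled arrays (an alternative added after seeing the data) were 0.0917 and 0.367 for DNA replication, 0.160 and 0.359 for histones and chromatin (0.542 as deposited), 0.0736 and 0.222 for splicing, 0.174 and 0.269 for the proteasome, 0.149 and 0.256 for interferon and antigen presentation, 0.212 and 0.142 for extracellular matrix, 0.0699 and -0.0181 for yolk and oestrogen response, and 0.113 and 0.123 for gluconeogenesis. Without tumors 1 and 10 the ovary and mitosis lists had 0.219 and 0.0809, and ribosomal proteins had 0.886 with scaled arrays. The causes were not tested. Of the SDs of the 102 genes named, 52 lay within their 95% interval with the median absolute deviation, 102 with the values as deposited and 72 without tumors 1 and 10. All that lay outside were below the interval, 50 with the median absolute deviation and 30 without tumors 1 and 10.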
